A study of Mus musculus with 7 samples.

Results

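The 38 type I interferon-stimulated genes followed here were taken by symbol from a list of antiviral and interferon-response genes, and all 38 were found among the 34305 rows of the count table. Messenger RNA was measured in 7 libraries from cultures of mouse HSPCs (haematopoietic stem and progenitor cells), the mixed bone marrow fraction from which blood cells arise. Of these libraries, 3 came from HSPCs overexpressing MN1pQdel, named MN1-∆pQ in the series text, 3 from HSPCs overexpressing MN1, and 1 from an untransduced culture (noTD). MN1 is a nuclear co-regulator of transcription and a known oncoprotein of acute myeloid leukaemia, and MN1pQdel lacks its polyglutamine stretch. Per the labels, the cells of the study were transduced with a plasmid and sorted, and RNA was taken on day 7 to 9 of culture with stem cell factor at 20 ng/mL, IL-6 at 10 ng/mL and IL-3. The label field for the cell source reads the same for noTD as for the transduced libraries, while its overexpression field says none. Mouse strain, age and sex, the promoter of the construct and the day of each library are not stated in these sources.

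Type I interferons bind a receptor made of IFNAR1 and IFNAR2, whose kinases TYK2 and JAK1 phosphorylate STAT proteins. With IRF9, STAT2 enters the complex ISGF3, which binds interferon-stimulated response elements, short GAAA repeats in the promoters of its target genes. The products of these genes sense viral RNA and DNA, degrade RNA, block translation or tag proteins with ISG15, and in the bone marrow interferon is known to drive stem cells out of quiescence.

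The promoters of several of these genes carry such repeats, and 7 are shown because their genes were called lower in MN1pQdel (Isg15, Ifit1, Ifit3, Oas1a and Ifi206), form a near-identical pair (Ifit3 and Ifit3b) or went against the others (Samd9l). Each line gives the 200 bases before the annotated start, 5′ to 3′ on the strand of the gene, from RefSeq on GRCm38.p6. Capitals mark GAAANNGAAA on either strand (written TTTCNNTTTC where it lies on the opposite one), and overlapping matches run together.
Isg15, chr4:156200819-156201018, minus strand: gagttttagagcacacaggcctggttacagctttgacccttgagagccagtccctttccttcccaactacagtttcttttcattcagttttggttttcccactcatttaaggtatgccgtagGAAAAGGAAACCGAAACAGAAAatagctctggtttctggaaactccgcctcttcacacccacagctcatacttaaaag
Ifit1, chr19:34640689-34640888, plus strand: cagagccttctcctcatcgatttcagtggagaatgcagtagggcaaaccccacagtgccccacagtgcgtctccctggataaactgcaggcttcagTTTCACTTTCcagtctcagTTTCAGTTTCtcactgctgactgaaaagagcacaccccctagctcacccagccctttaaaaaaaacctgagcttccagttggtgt
Ifit3, chr19:34583329-34583528, plus strand: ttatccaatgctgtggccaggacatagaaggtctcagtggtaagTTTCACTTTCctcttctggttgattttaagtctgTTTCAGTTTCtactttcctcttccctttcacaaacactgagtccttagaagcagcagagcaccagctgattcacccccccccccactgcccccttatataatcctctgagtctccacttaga
Ifit3b, chr19:34607757-34607956, plus strand: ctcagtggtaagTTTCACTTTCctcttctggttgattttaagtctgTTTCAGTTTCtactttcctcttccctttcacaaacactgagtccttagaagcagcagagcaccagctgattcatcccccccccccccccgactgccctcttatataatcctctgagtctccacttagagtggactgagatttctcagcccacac
Oas1a, chr5:120907526-120907725, minus strand: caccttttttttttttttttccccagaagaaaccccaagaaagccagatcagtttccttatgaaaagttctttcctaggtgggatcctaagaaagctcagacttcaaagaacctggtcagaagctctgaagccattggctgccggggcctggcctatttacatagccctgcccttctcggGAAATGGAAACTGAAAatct
Ifi206, chr1:173491319-173491518, minus strand: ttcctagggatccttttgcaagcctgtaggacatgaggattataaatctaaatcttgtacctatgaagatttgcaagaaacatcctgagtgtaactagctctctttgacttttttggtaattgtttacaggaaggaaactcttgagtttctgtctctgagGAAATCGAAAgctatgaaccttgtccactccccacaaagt
Samd9l, chr6:3399572-3399771, minus strand: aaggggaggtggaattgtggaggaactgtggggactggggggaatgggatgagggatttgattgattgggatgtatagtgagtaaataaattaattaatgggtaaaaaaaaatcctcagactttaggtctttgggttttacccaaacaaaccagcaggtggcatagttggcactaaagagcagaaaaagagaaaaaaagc
A window of 250 bases before the start was held for 27 of the 38 genes, some with more than 1 window, and 12 of these 27 genes (44.4%) had the motif in at least 1 window, against 936 of 27018 genes (3.46%) over all genes with a window. Of the genes called lower in MN1pQdel 8 of 13 with a window held it, and of those tested but not called 3 of 13, given as counts with no test. All printed windows of called genes hold a match, whereas Oasl1, Oasl2, Xaf1, Ifi44 and Eif2ak2, also called lower, had none and are not printed. In the window printed for Isg15 there were 3 overlapping matches, and in those for Ifit1 and Ifit3 there were 2 each. The Samd9l window held no match. The best local alignment of the Ifit3 and Ifit3b windows was 96.9% identical over 224 columns, and that of their transcripts 97.8% over 1700 columns.

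Totals ran from 38210660 to 67728658 estimated counts per library. Mn1 stood at 691, 404 and 728 CPM, the usual unit of counts scaled to the size of the library, in the MN1pQdel libraries, at 314, 287 and 288 CPM in the MN1 libraries and at 33.6 CPM in noTD. It was higher in MN1pQdel (log2 fold change 1.05, SE 0.23, edgeR adjusted p = 0.0282), and reads of construct and endogenous gene are not separable. The HSPC markers summed to 1878, 1186 and 2390 CPM in MN1pQdel, 2113, 1950 and 2555 CPM in MN1 and 2111 CPM in noTD. The sums hide opposite directions. Kit (mean 552 CPM in MN1pQdel, 326 CPM in MN1) and Gata2 (774 and 401 CPM) made up much of them and did not pass an adjusted p of 0.05. Of the 10 markers, 6 were lower in MN1pQdel at that threshold and 0 higher (6.08% and 11.1% of all genes). Among the 6 were Cd34 (226 and 585 CPM) and Adgrg1 (193 and 552 CPM). Throughout, CPM are scaled by TMM, values for groups are mean ± SD, and fold changes are log2 of MN1pQdel over MN1 from edgeR's quasi-likelihood test with Benjamini-Hochberg adjustment over all genes tested, called at an adjusted p under 0.05. The design text describes the samples as independent without saying whether separate animals were used, so the p-values reflect only how far these samples spread, which may be technical.

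Interferon-stimulated genes were lower in HSPCs with MN1pQdel than in HSPCs with MN1. Of the 37 tested, 20 were called lower in MN1pQdel and 0 higher, where 6.08% of all 14808 genes tested were called lower and 11.1% higher (901 and 1643 genes). Ifit3b had too few counts in the transduced libraries to be tested. The median log2 fold change was -1.49 for the 37 genes and 0.01 for all genes, and the range of the 37 ran from -5.04 for Mx2 to 0.75 for Samd9l, the one positive value. All 3 MN1pQdel libraries lay below all 3 MN1 libraries for 28 of 37 genes (21.9% of all genes) and above them for 0 (21.7% of all genes). An unadjusted p under 0.05 was reached by 34 of the 37 (37.7% of all genes). Scaled by library totals alone, 28 of the 37 were called lower in MN1pQdel. That scaling moved the median of all genes to -0.19 and turned the split over all genes to 1847 lower and 1140 higher.

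**Figure D1:**
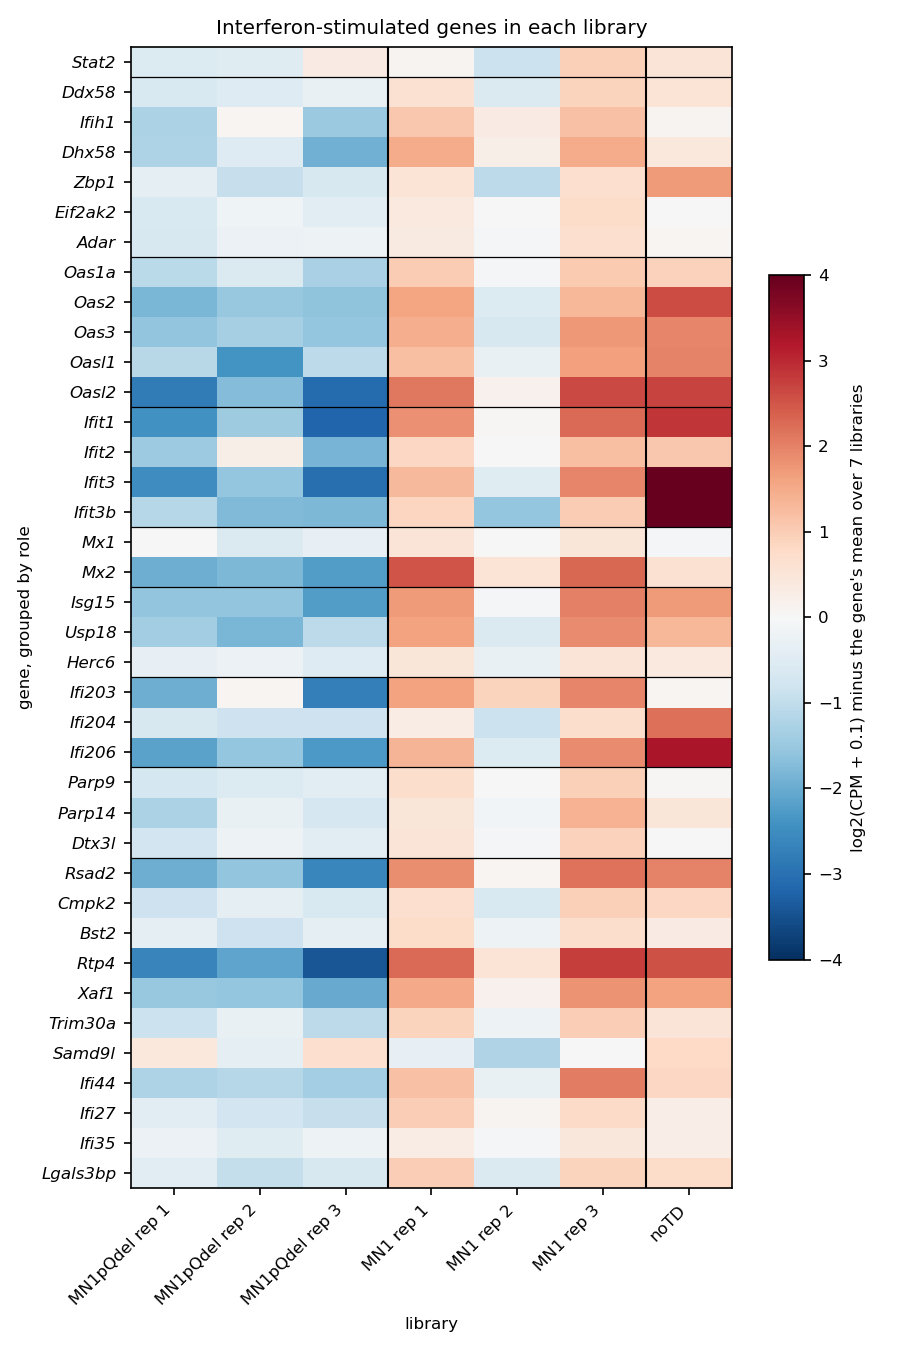
Heat map of the 38 interferon-stimulated genes (vertical axis, grouped by role, with lines between the groups) in the 7 libraries (horizontal axis). Colour gives log2(CPM + 0.1) minus the mean of the gene over all 7 libraries, cut at 4 in each direction. The MN1pQdel libraries are mostly blue, MN1 replicates 1 and 3 and noTD mostly red, and MN1 replicate 2 lies between them.

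Summed over the 38 genes, the libraries held 668, 674 and 725 CPM in MN1pQdel, 1690, 812 and 1962 CPM in MN1 and 1752 CPM in noTD. The MN1pQdel sums were close together, but single genes differed in MN1pQdel replicate 2 in either direction. Ifih1 had 8.25, 20.9 and 7.06 CPM in MN1pQdel, and Samd9l 127, 74.0 and 153 CPM. The median log2 deviation of the 38 genes from the mean of all 7 libraries was -1.15, -0.80 and -1.05 in MN1pQdel. By its sum, MN1 replicate 2 lay near MN1pQdel and far below the other 2 MN1 libraries. It was the lowest MN1 library for 37 of the 37 tested genes (34.6% of all genes), at a median log2 CPM of -1.37 relative to the mean of MN1 replicates 1 and 3, where the median over all genes was 0.00. Between libraries of the same replicate number, MN1pQdel was the lower one for 37 of 38 genes in pair 1 (50.3% of all genes), for 30 in pair 2 (49.5% of all genes) and for 37 in pair 3 (51.4% of all genes). The median log2 differences in pairs 1 to 3 were -2.17, -0.58 and -2.50 for the 38 genes, and -0.01, 0.00 and -0.02 for all genes. In pair 2 the 8 genes that were not lower in MN1pQdel were Stat2, Ddx58, Zbp1, Ifit2, Herc6, Ifi204, Cmpk2 and Samd9l. With both libraries numbered 2 left out, 35 genes were called lower in MN1pQdel and 1 higher, with a median of -2.40, and 2630 of all genes (17.4%) were called lower.

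The number of calls rested on single libraries. It was 1 of 38 genes tested without MN1pQdel replicate 1, 6 without MN1pQdel replicate 3, 5 without MN1 replicate 1 and 5 without MN1 replicate 3, and stood at 26 without MN1pQdel replicate 2 and 27 without MN1 replicate 2. Calls over all genes went the same way, with 95, 256, 194 and 130 genes called lower in the first 4 of these fits. Without MN1pQdel replicate 2, 3146 of all genes (20.6%) were called lower beside the 26, and without MN1 replicate 2, 275 (1.80%) beside the 27. Mx2 kept its call in 6 of these 6 fits, Rtp4, Oasl2, Rsad2 and Xaf1 in 5, Isg15 in 3, and Eif2ak2 in 1. The other 13 called genes kept it in 2. All 20 called genes stayed lower in MN1pQdel in each of the 6 fits, and Samd9l stayed higher, at 0.47 to 1.02 on the log2 scale.

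**Figure D2:**
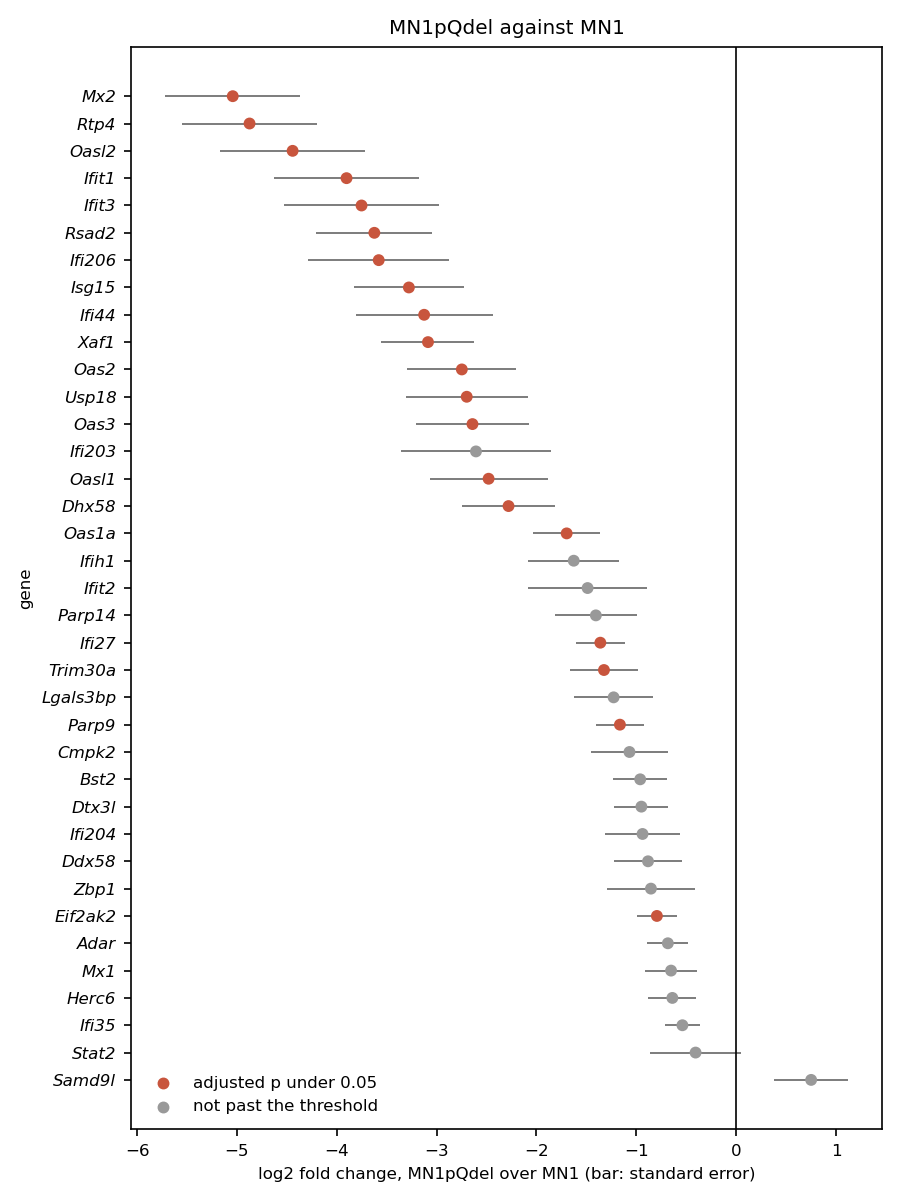
Log2 fold change of MN1pQdel over MN1 (horizontal axis) for the 37 tested genes, sorted along the vertical axis, with bars for the standard error and colour for an adjusted p under 0.05. Of the 37 points, 36 lie below 0 and 20 of these passed the threshold. Samd9l is the one point above 0.

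The signalling and sensing genes gave 2 calls among 7, both lower in MN1pQdel (6.08% of all genes). Stat2, the subunit that carries the activation domain of ISGF3, stood at 26.3, 27.3 and 47.5 CPM in MN1pQdel, against 41.1, 21.1 and 73.3 CPM in MN1 and 54.3 CPM in noTD. The groups overlapped, and the fold change of -0.41 (SE 0.45) did not pass (adjusted p = 0.538). Of 6 genes grouped as nucleic acid sensors, Adar among them, 2 were called lower. Dhx58 encodes LGP2, a regulator of the RNA sensors RIG-I and MDA5. It had 8.28, 13.7 and 5.07 CPM in MN1pQdel, against 54.5, 23.0 and 54.9 CPM in MN1 and 26.0 CPM in noTD, a fold change of -2.28 (SE 0.46, adjusted p = 0.0238). Every MN1 library lay above every MN1pQdel library. Eif2ak2, which encodes the kinase PKR that halts translation on double-stranded RNA, stood at 31.6, 42.4 and 35.8 CPM in MN1pQdel, against 63.1, 48.6 and 80.4 CPM in MN1 and 47.8 CPM in noTD (-0.79, SE 0.20, adjusted p = 0.0430). With the replicate number as a block its adjusted p was 0.0511. The genes of MDA5 (Ifih1, -1.63, adjusted p = 0.0529) and RIG-I (Ddx58, -0.88, adjusted p = 0.112), the Z-form nucleic acid sensor Zbp1 (-0.85, adjusted p = 0.196) and the RNA-editing enzyme Adar (-0.68, adjusted p = 0.0637) did not pass.

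All 5 genes of the OAS family were called lower in MN1pQdel (6.08% of all genes). The synthetases of this family make short oligoadenylates that activate the nuclease RNase L. Oasl2 had 1.19, 2.64 and 0.969 CPM in MN1pQdel, against 39.3, 10.0 and 56.2 CPM in MN1 and 58.5 CPM in noTD. Its fold change was -4.44 (SE 0.73, adjusted p = 0.0129), and even the lowest MN1 library stood above all MN1pQdel libraries. Oas3 had 6.36, 7.63 and 6.58 CPM in MN1pQdel, against 53.1, 12.3 and 64.2 CPM in MN1 and 74.5 CPM in noTD (-2.64, SE 0.56, adjusted p = 0.0269). Oas2 had 1.63, 2.05 and 1.94 CPM in MN1pQdel, against 18.6, 4.12 and 15.3 CPM in MN1 and 37.7 CPM in noTD (-2.75, SE 0.55, adjusted p = 0.0224). In these 3 genes the MN1pQdel libraries were close together beside the spread of MN1, MN1 replicate 2 was the nearest to them, and noTD lay above all 6 transduced libraries. Oasl1, which lacks synthetase activity, fell by 2.48 (SE 0.59, adjusted p = 0.0352) and Oas1a by 1.70 (SE 0.34, adjusted p = 0.0224) on the log2 scale. Oas2, Oas3 and Oas1a lie on chromosome 5 between 120730333 and 120907521, and Oasl2 and Oasl1 between 114896936 and 114937915 (GENCODE M21, GRCm38). Of the 31-base words in the Oas1a transcript, 68.8% also occur in other genes, nearly all of them in Oas1g, so the counts of these 2 are uncertain.

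The IFIT proteins bind foreign RNA and block its translation, and their genes form a cluster on chromosome 19. Ifit1 had 0.781, 1.66 and 0.422 CPM in MN1pQdel, against 16.4, 4.72 and 22.3 CPM in MN1 and 34.0 CPM in noTD (-3.90, SE 0.73, adjusted p = 0.0189). Ifit3 had 0.260, 0.593 and 0.149 CPM in MN1pQdel, against 4.80, 1.34 and 7.66 CPM in MN1 and 39.2 CPM in noTD (-3.75, SE 0.77, adjusted p = 0.0247; 0.0527 with the replicate block). For both genes the promoter windows printed above hold a pair of matches, and both were highest in noTD. Ifit3b, whose transcript shares 55.3% of its 31-base words with other genes, mostly with Ifit3, had 0.211, 0.102 and 0.0994 CPM in MN1pQdel, against 1.15, 0.139 and 1.29 CPM in MN1 and 14.6 CPM in noTD. Since reads can be split between the 2 copies, their counts were also summed, which gave 0.472, 0.696 and 0.248 CPM in MN1pQdel, against 5.95, 1.48 and 8.95 CPM in MN1 and 53.8 CPM in noTD. The sum was called lower in MN1pQdel, with a fold change of -3.50 (SE 0.72, adjusted p = 0.0245). Ifit2 did not pass (-1.49, SE 0.59, adjusted p = 0.118), and its level in MN1pQdel replicate 2, 14.6 CPM, was above the 12.6 CPM of MN1 replicate 2.

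**Figure D3:**
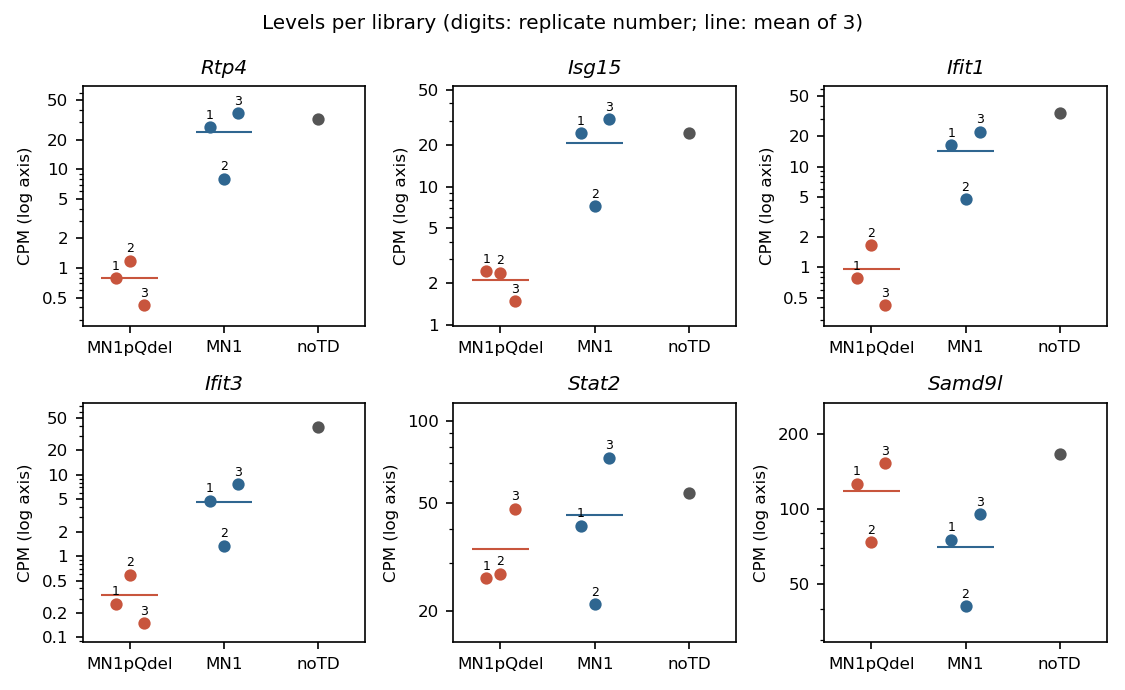
Levels of Rtp4, Isg15, Ifit1, Ifit3, Stat2 and Samd9l in CPM on a log axis (vertical), with a point for each library by group (horizontal), the replicate number beside it and a line at the mean of 3. Rtp4, Isg15, Ifit1 and Ifit3 show no overlap between MN1pQdel and MN1, Stat2 overlaps, and Samd9l overlaps too, with its lowest value in MN1 replicate 2.

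Mx proteins are GTPases that trap the capsids of viruses, and many inbred mouse strains carry defective Mx alleles. Mx2, annotated as a polymorphic pseudogene, had 5, 5 and 2 counts in MN1pQdel, against 159, 40 and 157 counts in MN1 and 35 counts in noTD. In CPM these were 0.0813, 0.102 and 0.0497 in MN1pQdel, against 3.88, 0.926 and 3.33 in MN1 and 0.959 in noTD. The fold change of -5.04 (SE 0.68, adjusted p = 0.00815) rests on few counts in MN1pQdel, where 3 counts correspond to 0.0488 to 0.0745 CPM. Mx1 did not pass (-0.65, SE 0.26, adjusted p = 0.115).

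ISG15 is a small ubiquitin-like protein that is joined to other proteins, HERC6 is its main ligase in the mouse, and USP18 removes it and also blunts receptor signalling. Isg15 had 2.44, 2.39 and 1.49 CPM in MN1pQdel, against 24.4, 7.22 and 30.6 CPM in MN1 and 24.6 CPM in noTD (-3.28, SE 0.55, adjusted p = 0.0137). The noTD library lay within the range of MN1 and far above MN1pQdel. Usp18 showed the same order, with 4.54, 3.31 and 5.71 CPM in MN1pQdel, against 36.6, 8.01 and 44.4 CPM in MN1 and 30.1 CPM in noTD (-2.70, SE 0.61, adjusted p = 0.0309). Herc6 did not pass (-0.64, SE 0.24, adjusted p = 0.105), and its groups overlapped.

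The PYHIN genes on chromosome 1 encode DNA-binding proteins of the interferon response. Ifi206 had 0.211, 0.368 and 0.174 CPM in MN1pQdel, against 3.39, 0.833 and 4.98 CPM in MN1 and 12.9 CPM in noTD (-3.58, SE 0.71, adjusted p = 0.0221). Ifi203 had 1.74, 7.43 and 0.969 CPM in MN1pQdel, against 21.6, 13.1 and 27.5 CPM in MN1 and 7.37 CPM in noTD. The groups did not overlap, but the spread within MN1pQdel was wide and the fold change of -2.61 (SE 0.75) missed the threshold (adjusted p = 0.0565). Ifi204 had 8.39, 7.24 and 7.30 CPM in MN1pQdel, against 15.9, 7.11 and 21.4 CPM in MN1 and 59.9 CPM in noTD, and did not pass (-0.94, adjusted p = 0.122). Of the transcripts' 31-base words, 36.4% in Ifi206, 34.6% in Ifi204 and 21.9% in Ifi203 occur in other genes as well, so counts within this family are uncertain.

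PARP9 and its partner DTX3L form an ADP-ribosylating ubiquitin ligase, and their genes overlap on opposite strands of chromosome 16. Parp9 had 22.5, 25.0 and 26.5 CPM in MN1pQdel, against 60.2, 36.9 and 70.4 CPM in MN1 and 38.1 CPM in noTD (-1.16, SE 0.24, adjusted p = 0.0241). Dtx3l (-0.95, SE 0.27, adjusted p = 0.0545) and Parp14 (-1.40, SE 0.41, adjusted p = 0.0599) missed the threshold, although neither overlapped between the groups. The sources state no strand setting, so reads from the stretch that Parp9 and Dtx3l share cannot be assigned.

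Among the remaining 11 effectors 6 were called lower (6.08% of all genes). Rtp4, which in mice limits both interferon responses and RNA viruses, had 0.797, 1.19 and 0.422 CPM in MN1pQdel, against 26.6, 8.03 and 37.3 CPM in MN1 and 32.6 CPM in noTD. Its fold change was -4.87 (SE 0.68, adjusted p = 0.00876), and noTD lay within the MN1 range. Rsad2 encodes viperin, which makes a chain-terminating nucleotide. It had 2.96, 3.85 and 1.84 CPM in MN1pQdel, against 42.3, 12.3 and 53.2 CPM in MN1 and 46.5 CPM in noTD (-3.62, SE 0.58, adjusted p = 0.0123). Its neighbour on chromosome 12, the nucleotide kinase gene Cmpk2, did not pass (-1.07, SE 0.38, adjusted p = 0.0947). Xaf1, an apoptosis regulator, had 1.38, 1.35 and 0.944 CPM in MN1pQdel, against 12.2, 4.68 and 14.8 CPM in MN1 and 12.9 CPM in noTD (-3.09, SE 0.47, adjusted p = 0.0104). In these 3 called genes the highest MN1pQdel library was below the lowest MN1 library. Ifi44 (-3.13, SE 0.69, adjusted p = 0.0286), Ifi27 (-1.36, SE 0.25, adjusted p = 0.0174) and the E3 ligase gene Trim30a (-1.32, SE 0.34, adjusted p = 0.0442) were called lower too, the first on 9, 8 and 5 counts in MN1pQdel. Trim30a had an adjusted p of 0.0793 with the replicate block.

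Of the others, Bst2, the gene of the virus-tethering protein tetherin (-0.96, adjusted p = 0.0531), Ifi35 (-0.54, adjusted p = 0.0781) and Lgals3bp (-1.23, adjusted p = 0.0734) did not pass. With the replicate block each of them did, at adjusted p = 0.0131, 0.0248 and 0.0367 in that order. Samd9l, a restriction factor that slows growth and translation, ran against the other genes. It had 127, 74.0 and 153 CPM in MN1pQdel, against 75.7, 40.8 and 95.7 CPM in MN1 and 166 CPM in noTD. The groups overlapped and the fold change of 0.75 (SE 0.37) did not pass (adjusted p = 0.180). Within each pair of libraries of one number, however, MN1pQdel was the higher one, by 0.74, 0.86 and 0.67 on the log2 scale, and with the replicate block Samd9l was called higher (adjusted p = 0.00847). The block gave 20 lower calls in all, of which 17 were shared with the fit without it, and 2022 lower calls over all genes.

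Beside the untransduced library, the MN1pQdel cells stood low and the MN1 cells mixed. With 1 noTD library there is no test, and a gene was counted as past 2-fold when the mean log2 CPM differed by at least 1 and all 3 libraries lay on the same side. Between MN1pQdel and noTD, 26 of the 38 genes lay lower in MN1pQdel and 0 higher, where 3.42% of all genes lay lower and 0.953% higher. The median log2 difference was -1.78, against 0.02 for all genes. Between MN1 and noTD, 11 genes lay lower in MN1 and 1 higher, Ifi203, where 17.1% of all genes lay lower and 10.3% higher, and the median was -0.34, against 0.01 for all genes. Without MN1 replicate 2 the counts were 6 lower and 4 higher, and the median turned to 0.10. In that setting 2495 of all 15158 genes lay lower and 1647 higher, so the member counts were near the shares over all genes. Both comparisons share the noTD library, so they are given side by side only. Scaling by library totals gave 25 lower genes for MN1pQdel, and 8 lower and 2 higher for MN1. Over all genes that scaling gave 508 lower of 14792 for MN1pQdel, and 2097 lower and 2196 higher of 15044 for MN1.

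The noTD value lay within the range of the 3 MN1 libraries for 23 of the 37 tested genes (18.6% of all genes) and within the range of the 3 MN1pQdel libraries for 2, Mx1 and Ifi203 (59.2% of all genes). MN1 replicate 2 widened the MN1 range of these genes, at a median log2 CPM of -1.37 relative to MN1 replicates 1 and 3 (0.00 over all genes). A wider range holds noTD more readily, so the count and the share are not fully comparable. The noTD value stood above all 6 transduced libraries for 11 of the 38 genes, 10 of them tested (12.6% of all genes), namely Zbp1, Oas2, Oas3, Oasl1, Oasl2, Ifit1, Ifit3, Ifit3b, Ifi204, Ifi206 and Samd9l. Relative to noTD, the log2 level of Ifit3 was -6.88 in MN1pQdel and -3.40 in MN1, and that of Ifi206 was -5.51 in MN1pQdel and -2.38 in MN1. Zbp1, at 10.4, 7.10 and 8.62 CPM in MN1pQdel and 19.8, 6.50 and 21.4 CPM in MN1, had 44.1 CPM in noTD. For these genes both transduced groups were below the untransduced culture, while for Isg15, Rtp4, Rsad2, Xaf1 and Usp18 the MN1 libraries lay around it.

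**Figure D4:**
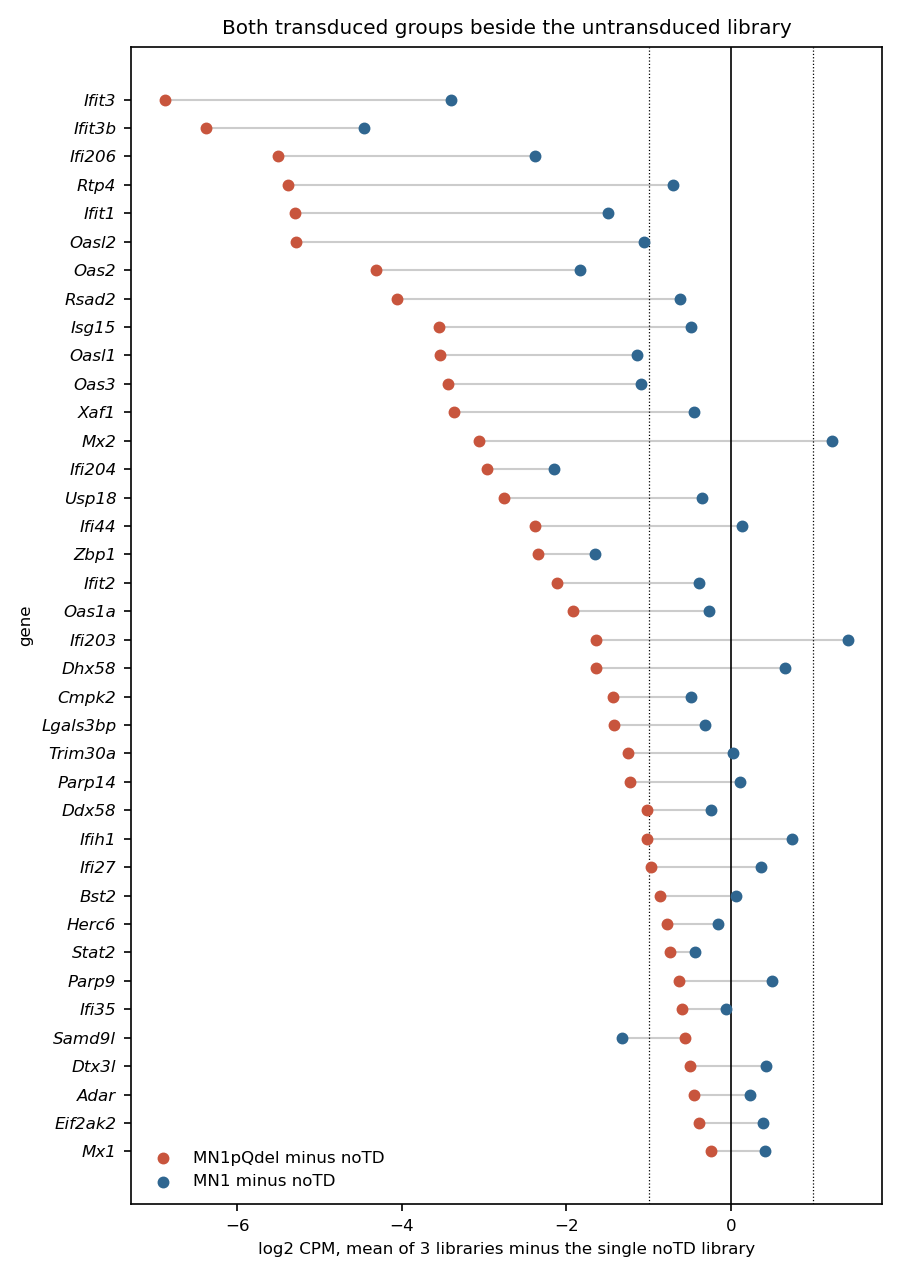
Mean log2 CPM of the 3 MN1pQdel libraries and of the 3 MN1 libraries, each minus the single noTD library (horizontal axis), for the 38 genes along the vertical axis, with dotted lines at a 2-fold difference. All MN1pQdel points lie below 0, down to -6.88 for Ifit3, while the MN1 points lie on both sides, and no spread can be given for noTD.

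Transcripts of the interferons themselves were almost absent. Of 18 type I interferon genes, none had enough counts to be tested. Ifnb1 had 0, 0 and 0 counts in MN1pQdel, against 3, 1 and 5 counts in MN1 and 2 counts in noTD, and 0 counts allow up to 3 in such a library. Ifnz had the most, with 7, 16 and 8 counts in MN1pQdel, against 10, 8 and 10 counts in MN1 and 5 counts in noTD. Ifng, the type II interferon gene, had 1 count in all libraries together. Interferon genes expressed at these levels could not be compared between the groups.

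The few calls among the receptor and kinase genes were mostly in the other direction. Of 10 genes of the receptors and the JAK-STAT chain, 0 were called lower and 3 higher in MN1pQdel, and 7 were not called. Over all genes 6.08% were called lower and 11.1% higher. With the replicate block 1 of the 10 was lower and 5 higher, beside 2022 and 2523 of all 14808 genes. Ifnar2 had 69.7, 67.3 and 69.9 CPM in MN1pQdel, against 47.9, 52.3 and 52.6 CPM in MN1 and 75.7 CPM in noTD (0.45, SE 0.10, adjusted p = 0.0264). Jak1 (1.02, SE 0.19, adjusted p = 0.0195) and Jak2, a kinase of cytokine receptors (1.56, SE 0.29, adjusted p = 0.0181), were higher too. Ifnar1 (0.02, adjusted p = 0.942) and Tyk2 (0.33, adjusted p = 0.0861) did not pass, and with the block Tyk2 was called higher (adjusted p = 0.0421). Irf9, the DNA-binding subunit of ISGF3, had 14.7, 16.5 and 27.6 CPM in MN1pQdel, against 36.5, 24.8 and 52.1 CPM in MN1 and 49.3 CPM in noTD, and did not pass without the block (-0.93, SE 0.34, adjusted p = 0.0967). With the block it was called lower (adjusted p = 0.0218). Among 11 brakes on the pathway 2 were called higher and 0 lower (3 and 1 with the block), the phosphatase gene Ptpn6 (0.97, SE 0.11, adjusted p = 0.00526) and Samhd1 (0.86, SE 0.23, adjusted p = 0.0449). For a list this small, these counts lie near the shares over all genes.

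Of 15 tested genes that induce interferon, 3 were called lower and 3 higher in MN1pQdel (6.08% and 11.1% of all genes). Irf7, the transcription factor that drives most interferon alpha genes and is itself induced by interferon, had 7.74, 7.18 and 6.83 CPM in MN1pQdel, against 58.1, 17.0 and 73.6 CPM in MN1 and 81.3 CPM in noTD. It fell by 2.76 on the log2 scale (SE 0.50, adjusted p = 0.0180). Trim25 (-0.69, adjusted p = 0.0313) and the DNA sensor gene Mb21d1, now called Cgas (-0.56, adjusted p = 0.0485), were lower as well, and Tlr7 (0.71, adjusted p = 0.0421), Myd88 (0.49, adjusted p = 0.0187) and Tbk1 (0.60, adjusted p = 0.0264) were higher.

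**Figure D5:**
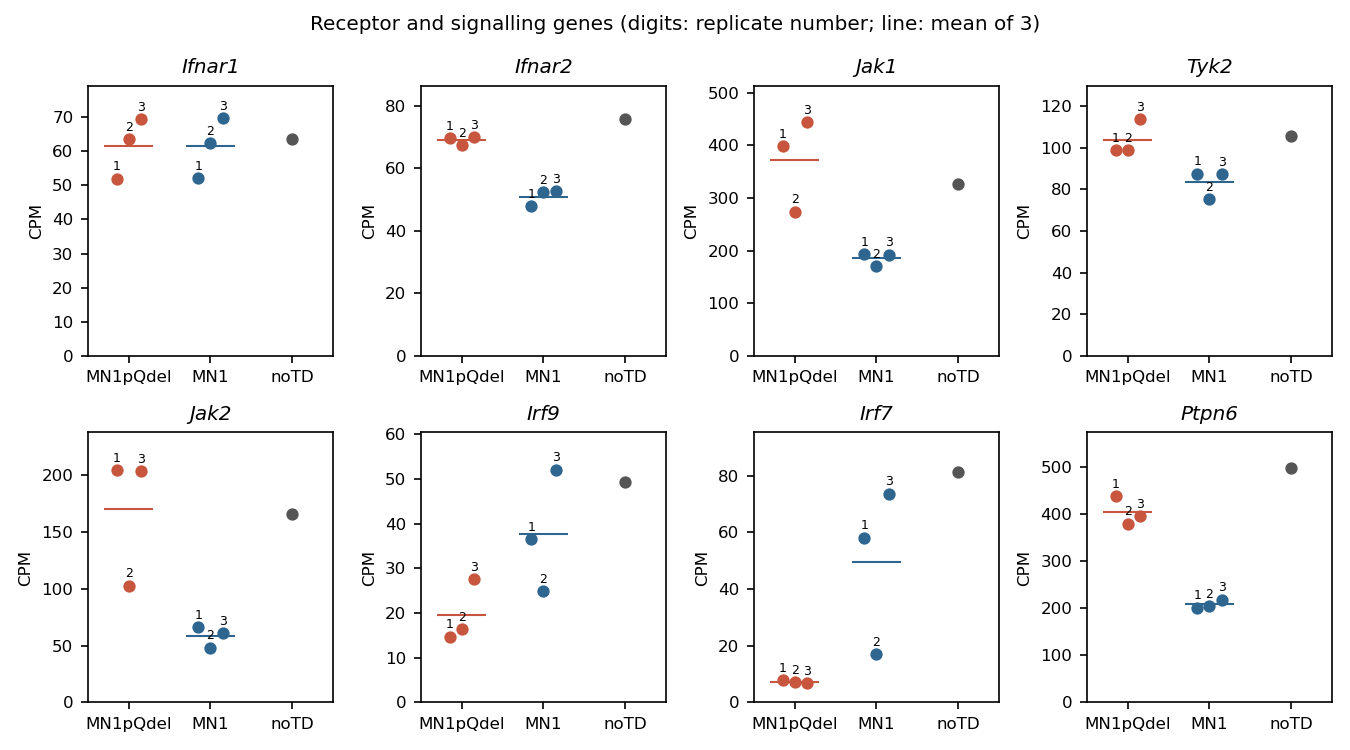
Levels in CPM (vertical axis, from 0) of 8 receptor and signalling genes by group (horizontal axis), with a point for each library, its replicate number and a line at the mean of 3. Irf7 stands at 6.83 to 7.74 CPM in MN1pQdel and at 17.0 to 73.6 CPM in MN1, Ifnar1 overlaps between the groups, and Ifnar2, Jak1, Jak2 and Ptpn6 lie higher in MN1pQdel.

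Most other interferon-stimulated genes had fold changes below 0 as well. Of 44 tested genes of a second list, 13 were called lower in MN1pQdel and 0 higher (6.08% and 11.1% of all genes), with a median of -1.15. The other 31 were not called, and fold changes were below 0 for 37 of the 44 and above 0 for 7. Among the called genes, the largest differences beside Irf7 were those of Phf11b (-2.76, SE 0.64), Oas1g (-2.52, SE 0.68) and the Schlafen gene Slfn5 (-2.24, SE 0.48), at adjusted p = 0.0332, 0.0487 and 0.0277 in that order. With the replicate block Phf11b (adjusted p = 0.0588) and Oas1g (adjusted p = 0.0587) lost their calls. The list then had 12 lower and 2 higher calls, beside 2022 and 2523 of all 14808 genes. Of 16 tested genes that respond mainly to interferon gamma, 9 were called lower and 0 higher (again 6.08% and 11.1% of all genes). Tgtp1, a GTPase gene of that response, had 0.0813, 0.368 and 0.0497 CPM in MN1pQdel, against 11.6, 5.37 and 14.8 CPM in MN1 and 0.411 CPM in noTD (-5.95, SE 0.78, adjusted p = 0.00748). Here MN1 stood above noTD, in contrast to Ifit3. Iigp1 (-3.89, SE 0.81), Tgtp2 (-2.94, SE 0.47) and the chemokine gene Cxcl10 (-2.43, SE 0.47) followed, at adjusted p = 0.0256, 0.0125 and 0.0210. The counts of Tgtp1 and Tgtp2, close copies of each other, are uncertain.

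Over the 7 libraries, the gene outside the list whose level followed the mean of the 38 most closely was Irf7, with Pearson's r of 0.990 among 9806 genes ranked. These averaged 5 CPM or more, and numbered predicted genes, clones, pseudogene symbols and symbols turned to dates were left out. Irf7 was followed by Helz2 (0.983), Trim30d (0.975), Isg20 (0.966), Igtp (0.965), Oas1c (0.960), Parp12 (0.960) and Sdc3 (0.959). These points share libraries and scaling, and the groups themselves make up much of the spread. Within the list, the level of each gene was set against the mean of the others. Oas3 had the highest r (0.989), Stat2 the second lowest (0.65) and Samd9l the lowest (-0.03).

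Markers of mature blood cells also differed between the groups, where 11.1% of all genes were called higher and 6.08% lower in MN1pQdel. All 10 neutrophil markers were called higher in MN1pQdel, and they summed to 34467, 28171 and 24970 CPM in MN1pQdel, 7465, 6036 and 4041 CPM in MN1 and 35229 CPM in noTD. Of 7 tested eosinophil markers 6 were higher, with sums of 3331, 233 and 3559 CPM in MN1pQdel, 20.1, 12.8 and 19.9 CPM in MN1 and 3722 CPM in noTD. Mast cell and basophil markers were higher in 6 of 10, at 14213, 3601 and 17579 CPM in MN1pQdel, 3942, 1594 and 3500 CPM in MN1 and 15494 CPM in noTD. Monocyte and macrophage markers were higher in 5 of 10, at 1164, 1140 and 1000 CPM in MN1pQdel, 565, 520 and 565 CPM in MN1 and 1305 CPM in noTD. In the sums of these 4 lists MN1pQdel replicates 1 and 3 lay nearer to noTD than to MN1. MN1pQdel replicate 2 held far fewer eosinophil transcripts than its group. Its median log2 deviation over the 38 genes, from the mean of all 7 libraries, was -0.80, beside -1.15 and -1.05 in MN1pQdel replicates 1 and 3. The most changed of these markers were Ly6g, Mmp9, Retnlg and Ltf for neutrophils, Ear6, Prg2, Ear1 and Epx for eosinophils, Fcer1a, Mcpt4, Tpsab1 and Prss34 for mast cells and basophils, and C1qa, C1qb, Adgre1 and Ly6c2 for monocytes and macrophages.

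Plasmacytoid dendritic cells, which make much interferon, had markers that summed to 25.9, 57.0 and 19.7 CPM in MN1pQdel, 80.5, 102 and 93.1 CPM in MN1 and 30.8 CPM in noTD. Of 8 tested, 1 was called lower, Tcf4 (3 with the replicate block). Fold changes were below 0 for 7 of the 8 and above 0 for 1. For 5 of the 8, all MN1pQdel libraries lay below all MN1 libraries (21.9% of all genes). Of the 10 markers listed, Siglech, Klk1, Pacsin1, Spib and Ly6d stayed under 1 CPM in every library. Conventional dendritic cell markers summed to 61.4, 34.4 and 71.2 CPM in MN1pQdel, 111, 136 and 137 CPM in MN1 and 84.1 CPM in noTD. Without Flt3, which is also an HSPC marker, the sums were 60.1, 27.4 and 70.9 CPM in MN1pQdel, 46.2, 24.6 and 50.0 CPM in MN1 and 82.5 CPM in noTD, so that MN1pQdel was the higher one in each pair. These sums too hide opposite directions. Of 8 tested, fold changes were below 0 for 5, Flt3 among them, and above 0 for 3. Only Flt3 was called, as lower. Cd209a was at 0 in every library, and Zbtb46, Xcr1, Clec9a and Batf3 stayed under 1 CPM. HSPC markers were lower in 6 of 10, led by Flt3, Hlf, Cd27 and Adgrg1, and B cell markers in 3 of 5 tested (Rag1, Dntt and Ebf1). Among T and NK cell, erythroid and megakaryocyte markers (3, 9 and 10 tested) 1 each was called higher, namely Gzmb, Hbb-bs and Tubb1. Over all genes 11.1% were called higher and 6.08% lower, so the erythroid and megakaryocyte counts lay near that share. The groups overlapped for Gzmb, which lost its call with the replicate block (adjusted p = 0.0757). The block gave 4 higher calls among megakaryocyte markers and 2 higher and 1 lower among erythroid ones, beside 2523 higher and 2022 lower of all 14808 genes. The part of cell makeup in the levels of the interferon-stimulated genes was not tested, and in bulk RNA fewer cells of a type and less RNA per cell cannot be told apart.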

How the data were processed

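Poly(A) RNA of 7 libraries was read from both ends at 150 bases, per the labels' protocols. The table deposited by the authors holds raw estimated counts for each gene symbol. The submitters' processing notes name kallisto, DESeq2 and GRCm38, while versions, transcript index and strand setting are not stated in the sources. Of the values 32.5% were not whole (tolerance 1e-06), and 26 symbols had become dates (0.172% of counts).

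Counts were rounded. MN1pQdel was tested against MN1 (3 libraries each, group as the only term) with edgeR 4.0.16 in R 4.3.3 (filterByExpr, TMM, quasi-likelihood test, Benjamini-Hochberg over 14808 genes, threshold 0.05). Pseudocounts were a prior count of 2 for log2 CPM beside noTD, where genes needed 10 counts in noTD or in every library of the group. The scripts were tested on simulated data. Replicates differed by 43.4 to 355 in chi-square per gene, far beyond counting error, and intervals or limits from a count of 0 cover counting error only.

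The members and lists were chosen with earlier results of these data known. The text names all members, Mn1, 7 genes of the signalling chain, up to 4 called genes of each list by size of change, and the 8 genes most like the members. Of the genes that this rule or the marker lists would name, 2 are not reported here. Outside this rule Myd88, Mb21d1, Ifnz, Ifng and markers near 0 were named after their values were seen. Same-numbered libraries deviated together (r 0.368, 0.259 and 0.320 across genes, against -0.282 to -0.0602 for other pairs). What a number marks is not in the labels, so the pairing comes from the data, and a fit with the number as a block was run beside the main one. Alternatives were other scalings, DESeq2 1.42.0, other filters, a fit on 7 libraries, other prior counts and folds, and leaving out libraries. Summing Ifit3 and Ifit3b and leaving out both libraries numbered 2 beside noTD were added after the values were seen. Gene positions come from GENCODE M21, promoters from RefSeq, and shared words are 31 bases long.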

Additional observations from a re-analysis of the deposited data

How the results depend on the processing

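Between MN1pQdel and MN1, the interferon-stimulated genes called lower numbered 20 of 37 as reported, 20 with DESeq2's size factors, 28 with library totals, 31 with DESeq2's Wald test, 25 of 38 without a filter, 17 of 34 with at least 1 CPM, 20 with all 7 libraries in 1 fit, 20 with the replicate block and 35 of 38 without both libraries numbered 2. The block and the fit without both libraries numbered 2 each called 1 gene higher, Samd9l, and leaving those libraries out moved the median to -2.40. With the block, Eif2ak2, Ifit3 and Trim30a lost their calls, Bst2, Ifi35 and Lgals3bp gained them, and no other member called lower changed. Over all genes, lower calls came to 1847 with library totals, 1906 with DESeq2, 2022 with the replicate block (2523 higher) and 2630 without the libraries numbered 2 (2617 higher), against 901 and 1643 as reported. Library totals moved the median of all genes from 0.01 to -0.19. Genes of the pathway lists called lower came to 40 with DESeq2 and 48 without the libraries numbered 2. Those called higher came to 3 with library totals and 14 with the replicate block, against 8. Marker genes called lower came to 21 without the libraries numbered 2, against 10.

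Leaving out 1 library gave 1 to 27 members lower and 0 to 0 higher, medians from -2.06 to -1.32, all genes 95 to 3146 lower and 378 to 3248 higher, pathway genes 2 to 32 lower and 1 to 15 higher, and marker genes 2 to 20 lower and 12 to 45 higher. Fold changes of genes that were not called turned for Stat2 (0.11 without MN1 replicate 3; -0.75 to 0.11 over single left-out libraries) and for Ifnar1 (-0.18 with library totals, -0.0268 without both libraries numbered 2, -0.0229 and -0.0793 without MN1pQdel replicates 2 and 3, -0.0901 without MN1 replicate 1; -0.0901 to 0.117 over single left-out libraries). The cause was not tested.

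Between MN1pQdel and noTD the members lower numbered 24 to 32 under all alternatives. Over all genes a threshold of 1.5-fold gave 1190 lower and 508 higher, no filter gave 934 and 493, and leaving out 1 library gave 466 to 784 and 191 to 414. Between MN1 and noTD, members higher numbered 2 with library totals (2196 of all genes) and 2 at 1.5-fold. Without the libraries numbered 2, 6 members were lower and 4 higher, beside 2493 and 1651 of all 15158 genes. Leaving out 1 library gave 6 to 13 members lower and 1 to 4 higher, beside 2495 to 2694 and 1604 to 1743 of all genes. All genes at 1.5-fold came to 3937 lower and 3222 higher. Levels of Mx2, Ifi44, Ifit3b and the interferon genes in MN1pQdel are limited by depth.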
